A study of Mus musculus with 38 samples.

Results

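Dab2, Cubn, Lrp2 and Amn, 4 genes whose products form the endocytic receptor complex of the yolk sac, were followed through every processed table of the series. They were taken by symbol, as 4 of 35976 genes in a bulk RNA-seq table of 17 libraries, 4 of 37108 in a second bulk table of 8 libraries, and 4 of 20695 in a single-cell count table, and by position in 13 peak lists. All 4 were found in every table. Lrp2 encodes megalin, a giant endocytic receptor. Cubn encodes cubilin, a large extracellular receptor with no membrane anchor of its own. Amn encodes amnionless, the small membrane protein that carries cubilin to the cell surface. Dab2 encodes the clathrin adaptor that binds the cytoplasmic tails of megalin and amnionless. Cells of the visceral endoderm use this machinery at their apical surface to take up maternal proteins, vitamin carriers and lipoproteins, and the kidney proximal tubule uses the same receptors to recover filtered protein.

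All cells came from E13.5 mouse embryonic fibroblasts (MEFs) that were infected with reprogramming factors and cultured in iCD3, a medium that here held vitamin C, bFGF and mLIF together with small molecules, among them Y27632, SGC0946 and CHIR99021. JGES stands for Jdp2, Glis1, Esrrb and Sall4. JGE lacks Sall4, JGEO holds Oct4 in place of Sall4, and JGESO holds both. BMP4+ cells received 10 ng/ml BMP4 and BMP4- cells received none. JGES cells were sampled at days 0, 1, 3, 5 and 7 without BMP4 and at days 1, 3, 5 and 7 with it, and JGE, JGEO and JGESO cells at day 7 with and without it. In a further set, MEFs received SALL4 alone, either the intact protein (WT) or a form without its N-terminal 12 amino acids (delN12). They were sampled at days 1, 5, 9 and 11 for RNA and ATAC-seq. Cut&Tag at day 6 was of SALL4 and of H3K27ac, an acetylation mark of active promoters and enhancers. The RNA samples of this set had no BMP4, and no BMP4 value is given for the ATAC-seq and Cut&Tag samples. MEFs gave 1 further ATAC-seq list. Day 7 JGES cells with and without BMP4 were also measured as single cells. Each of the 38 samples is a condition of its own, so no difference below has a replicate check and no single difference is given a p-value. A permutation test over differences paired by day or factor set is given in the last section. Days and factor sets are not replicates. Bulk levels are FPKM (fragments scaled by gene length and library size), and a difference is between values of log2(FPKM + 1), which understates the change of low genes. A gene was counted as higher or lower when that difference reached 1, and the share of all tested genes past the same limit is given beside the counts of members. The tables carry no read totals, so the counting error of an FPKM is unknown. In bulk RNA, fewer cells of a type and less RNA per cell cannot be told apart.

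In the JGES time course both receptors were highest at day 7, the 1 sampled day at which all 4 genes were higher by the limit with BMP4 than without. From day 1 to day 3 in BMP4+ cells, Lrp2 rose by 1.15 on the log2 scale, 1 of 4 members against 8.49% of genes, and Amn fell by 1.25, 1 of 4 against 5.33%, while no member passed the limit without BMP4 (8.23% of genes were higher and 5.2% lower), where Cubn and Lrp2 were below 1 FPKM at both days. With a pseudocount of 0.1 this step of Lrp2 was 1.42 without BMP4 and 2.21 with it, and that of Cubn 1.93 and 2.76. In BMP4+ cells, 2 of the 4 members were higher at day 5 than at day 3, Dab2 by 1.33 and Cubn by 1.30 on the log2 scale, against 5.73% of genes, and all 4 genes were higher at day 7 than at day 5, by 2.77 for Dab2, 2.78 for Cubn, 2.47 for Lrp2 and 1.79 for Amn on the log2 scale, against 6.87% of 14496 tested genes. In BMP4- cells, 3 of the 4 had already risen from day 3 to day 5, Dab2 by 1.21, Cubn by 1.86 and Lrp2 by 1.04 (0.98 with the libraries scaled to a common median ratio), against 9.19% of genes, and from day 5 to day 7 only Cubn passed the limit, with a difference of 1.33, against 6.35%. At day 7, all 4 genes were higher with BMP4 than without, against 10.3% of 15347 genes, and the median difference of all those genes was -0.14. The 2 day 7 libraries also differed in other lists. All 6 pluripotency markers were lower with BMP4 (median -3.94) and 5 of 6 fibroblast markers were higher (median 3.07), and the part of such a shift in cell make-up in the members' values was not tested. At day 1 no member passed the limit in either direction (3.75% of genes were higher and 5.72% lower), nor did any at day 5 (8.78% and 13.2%).

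Dab2, the adaptor, had the highest level of the members at day 0. Its level in JGES cells without BMP4 was 25.3 FPKM at the start and 4.85, 2.62, 7.34 and 9.82 FPKM at the 4 later time points. With BMP4 it was 5.87, 3.29, 9.79 and 72.6 FPKM at days 1, 3, 5 and 7. Dab2 thus fell by 2.17 on the log2 scale from day 0 to day 1 without BMP4, against 9.28% of genes lower by the limit, and by 1.94 with it, against 9.05%. Only the BMP4+ library of day 7 lay above the starting level. The BMP4 difference was 0.23, 0.24 and 0.37 at days 1, 3 and 5 and 2.77 at day 7, where the FPKM ratio was 7.39.

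Cubn, the ligand-binding receptor, started near 0. Without BMP4 it was 0.237 FPKM at day 0 and 0.0860, 0.610, 4.84 and 13.7 at days 1, 3, 5 and 7. With BMP4 it was 0.0309, 0.788, 3.39 and 29.1 FPKM. Between day 0 and day 7 without BMP4, Cubn rose by 3.57 on the log2 scale, more than the other 3 members over that interval, and its BMP4 difference at day 7 was the smallest of the 4 on the log2 scale, at 1.04. At days 1, 3 and 5 the difference was -0.08, 0.15 and -0.41.

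Lrp2, the second receptor, was also highest at day 7 in both courses. Without BMP4 it was 0.890 FPKM at day 0 and 0.147, 0.559, 2.2 and 4.26 at days 1, 3, 5 and 7. With BMP4 it was 0.362, 2.03, 2.06 and 15.9 FPKM. The BMP4 difference of Lrp2 was 0.25, 0.96, -0.07 and 1.69 at days 1, 3, 5 and 7, so that it lay just under the limit at day 3, where 6.81% of genes were above it, and was 1.02 there once the libraries were scaled to a common median ratio.

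Amn, the membrane carrier of cubilin, did not follow its partner. It was 2.17 FPKM at day 0, and without BMP4 it was 40.7, 24.0, 14.4 and 12.3 FPKM at days 1, 3, 5 and 7. With BMP4 it was 25.9, 10.3, 11.5 and 42.3 FPKM. Amn rose 3.72 on the log2 scale in the first day without BMP4 and 3.08 with it, when Cubn was below 0.1 FPKM in both libraries, and 11.8% and 9.78% of genes passed the limit in that direction over that step. Its BMP4 difference was -0.63, -1.15, -0.30 and 1.70 at days 1, 3, 5 and 7. At day 3, 1 of the 4 members was lower with BMP4, against 8.99% of genes, and it was Amn. The day 0 library served as the start of both courses, so their day 1 steps share it.

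**Figure D1:**
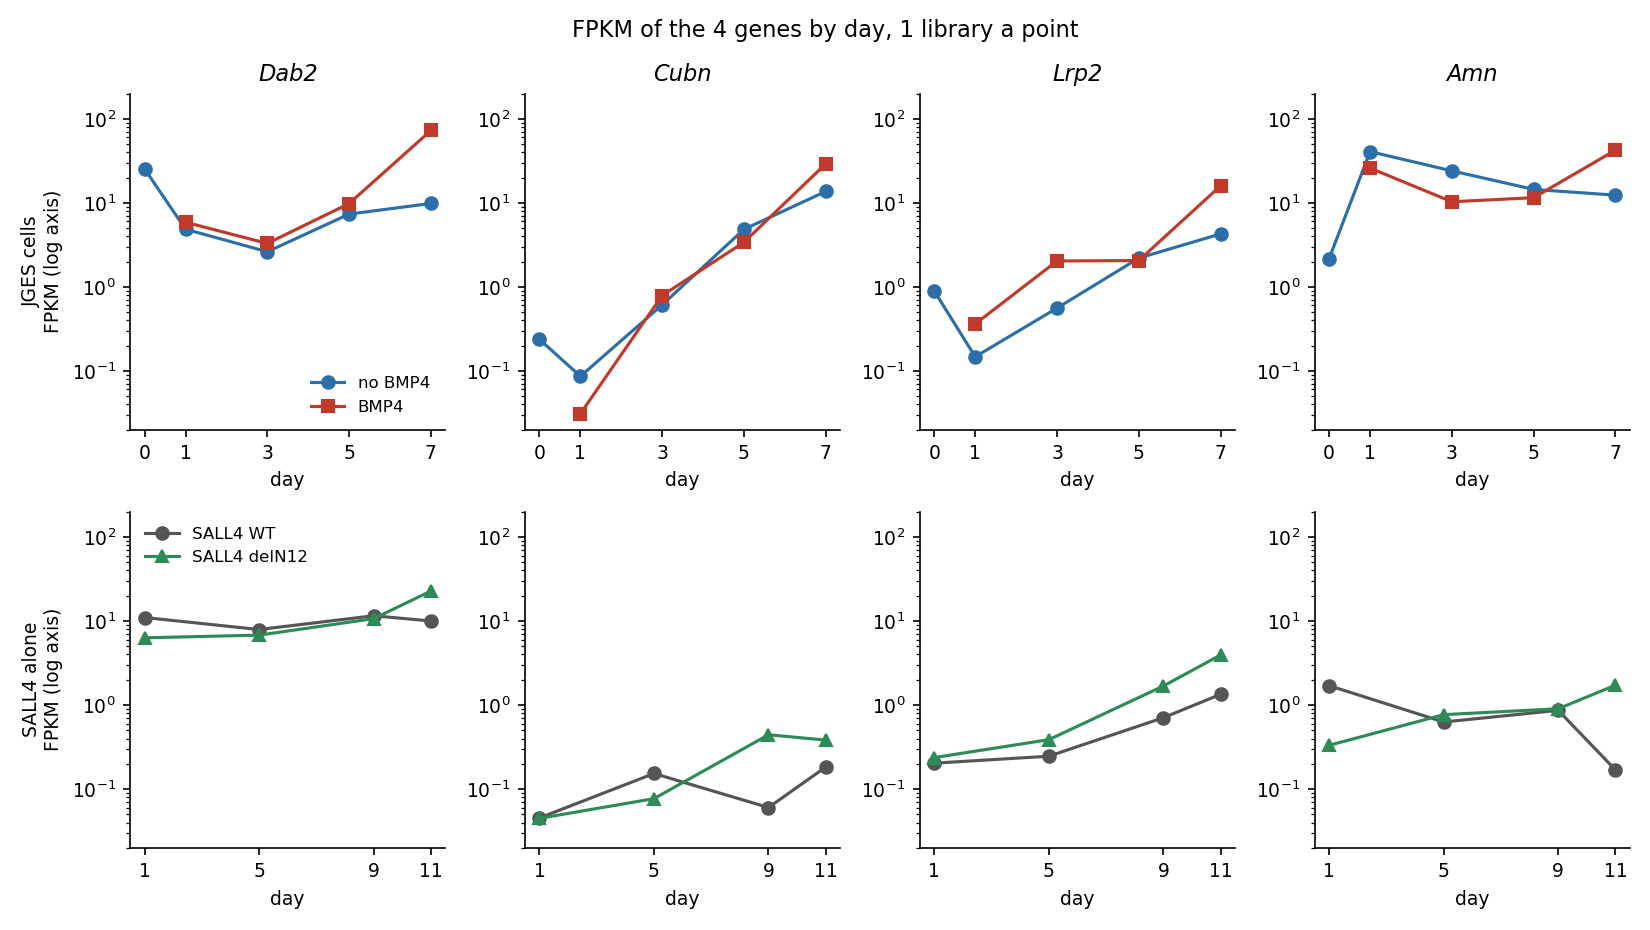
FPKM on a log axis against day for the 4 genes, 1 library a point. The upper row shows JGES cells without BMP4 (blue circles) and with BMP4 (red squares), and the lower row SALL4 WT (grey circles) and SALL4 delN12 (green triangles) alone. In the upper row all 4 genes are higher with BMP4 at day 7, where Dab2 was 72.6 against 9.82 FPKM, Lrp2 and Amn are also apart at day 3, in opposite directions, and Amn alone rises at day 1.

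The genes around the receptors moved unevenly at day 7 of the JGES course. Of 19 tested genes of the endocytic machinery, 2 were higher with BMP4 and none was lower, with a median difference of 0.45, a share of higher genes near the 10.3% of all genes. Ctsl, a lysosomal protease, was among the 2, at 243 against 92.2 FPKM (1.39), whereas Cltc, the clathrin heavy chain, differed by 0.45, Lamp1, a lysosomal membrane protein, by 0.71 and Clta, a clathrin light chain, by -0.10. For the 11 relatives of Lrp2 no count past the limit is given, so the genes named do not stand for the list. Lrp10 differed by 1.55, where 10.3% of all genes were higher. Lrp6, a WNT co-receptor, differed by -0.29 and Lrp8, a reelin receptor, by -0.81. Proteins that the complex is known to bind stood out more. Of 9 tested ligands, 6 were higher, against the same 10.3% of all genes, and none was lower, against 13.8%, with a median of 1.10. Clu (clusterin) was 2555 against 46.8 FPKM, Ttr (transthyretin, a thyroid hormone carrier) 52.3 against 1.56, and Rbp4 (the retinol carrier) 10.8 against 1.18, while Apoe differed by 0.41. Of 10 visceral endoderm markers, 8 were higher (median 1.73), and of 11 tested parietal endoderm markers, 4 were (median 0.93), against that same share. The 4 members are used as visceral endoderm markers themselves, so these lists and the members are not independent. The ligand and visceral lists also share 4 genes, Ttr and Rbp4 among them, so their counts are not separate results.

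At day 7 the level of the complex differed between factor sets with and without Sall4. In the table of 8 libraries, both JGE libraries and both JGEO libraries held at most 5.81 FPKM of any member, and all 4 libraries with Sall4 held more Cubn, Lrp2, Dab2 and Amn than any library without it. The 2 JGES libraries in this table are the day 7 libraries already described, rescaled by a constant (0.975 and 0.978 times), and they add no independent value. JGE, JGEO and JGESO cells without BMP4 were compared with their BMP4+ counterparts within this table.

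Without BMP4, Dab2 was 5.81 FPKM in JGE, 3.20 in JGEO, 51.9 in JGESO and 9.57 in JGES, and with BMP4 it was 3.22, 5.24, 75.2 and 71.0. The adaptor was thus high in both JGESO libraries, which differed by 0.53 on the log2 scale, and in JGES cells only with BMP4. Cubn was 0.0500, 0.0878, 8.18 and 13.3 FPKM without BMP4 and 0.0742, 0.402, 3.42 and 28.5 with it. In JGESO cells Cubn was lower with BMP4 by 1.05 on the log2 scale, 1 of 4 members past the limit against 3.52% of genes, and in JGES cells it was higher by 1.04. No member was higher with BMP4 in JGESO cells, against 5.29% of genes.

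Lrp2 was 0.281, 0.157, 5.58 and 4.15 FPKM without BMP4 in the same order of factor sets and 0.109, 0.518, 2.31 and 15.6 with it. Its difference in JGESO cells, -0.99, ran the same way as that of Cubn. Amn was 0.667, 0.914, 160 and 12 FPKM without BMP4 and 1.89, 4.71, 127 and 41.4 with it. Amn was the member for which the JGESO libraries stood highest of all, and it was the 1 member higher with BMP4 in JGEO cells, by 1.58, against 2.26% of genes, while none was lower (1.95%). In JGE cells no member passed the limit in either direction, against 4.28% of genes higher and 4.78% lower, and Cubn and Lrp2 were below 1 FPKM in both JGE libraries and both JGEO libraries. The JGE difference of Amn was 0.80, and 1.38 with a pseudocount of 0.1.

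With Sall4 added to JGE, 3 of 4 members were higher without BMP4 (Dab2 0.63, Cubn 3.77, Lrp2 2.01 and Amn 2.97), against 20.1% of genes, and 4 of 4 were higher with BMP4 (4.09, 4.78, 3.90 and 3.87 in that order), against 12.1%. With Sall4 added to JGEO, 4 of 4 were higher without BMP4 (3.65, 3.08, 2.51 and 6.39), against 7.48% of genes, and 4 of 4 with it (3.61, 1.66, 1.13 and 4.48), against 7.77%. The median of all tested genes in the last pair of comparisons was -0.26 and -0.29, and the members moved against it. Between JGES and JGESO libraries the receptors and their partners moved apart. In BMP4+ cells Cubn and Lrp2 were lower in JGESO than in JGES, with differences of -2.74 and -2.32 (24.9% of genes were lower by the limit), Amn was higher by 1.59 (14% of genes) and Dab2 differed by 0.08. In BMP4- cells the differences of JGESO from JGES were 2.32 for Dab2, -0.64 for Cubn, 0.35 for Lrp2 and 3.63 for Amn, so that 2 of 4 were higher, against 16.8% of genes, and none was lower, against 32.7%. These comparisons share libraries, and their counts are not independent of each other. The JGES libraries belong to the time course, and whether they were made together with the other 6 is not stated. In comparisons of JGES with JGE or JGESO, a difference between library sets and that of the added factor cannot be told apart. The JGES libraries also differed from the rest of this table in macrophage markers, a list of 8 genes whose summed level was 5.23 and 7.99 FPKM in the JGES libraries and 24.2 to 75.3 FPKM in the other 6. The part of that difference in the members' values was not tested.

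**Figure D2:**
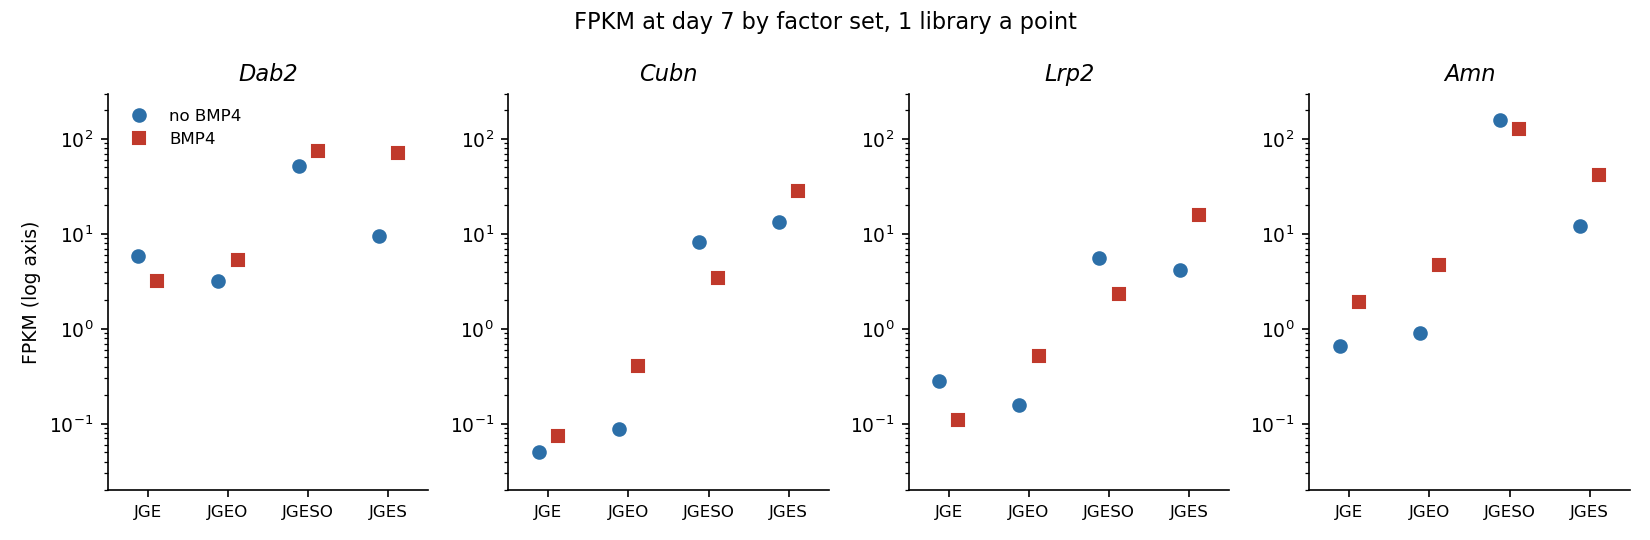
FPKM at day 7 on a log axis for 4 factor sets, without BMP4 (blue circles) and with BMP4 (red squares), 1 library a point. All 4 genes are low in JGE and JGEO, Cubn and Lrp2 change direction with BMP4 between JGESO and JGES, and Amn is highest in JGESO, at 160 and 127 FPKM.

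With SALL4 alone the receptors stayed at or under 3.95 FPKM, and 3 of the 4 members were higher with delN12 than with WT at day 11. With WT, Dab2 was 11, 7.93, 11.6 and 10.0 FPKM at days 1, 5, 9 and 11, and with delN12 it was 6.32, 6.80, 10.7 and 22.7. Lrp2 was 0.204, 0.246, 0.707 and 1.34 FPKM with WT and 0.237, 0.388, 1.69 and 3.95 with delN12. Both genes were highest in the delN12 library of day 11. Amn was 1.70, 0.629, 0.866 and 0.169 FPKM with WT and 0.332, 0.769, 0.904 and 1.72 with delN12, a difference of -1.02 at day 1 and 1.22 at day 11. Cubn stayed at or under 0.443 FPKM in all 8 libraries and was never above the FPKM minimum of 1. At day 11 the differences were 1.11 for Dab2, 1.08 for Lrp2, 1.22 for Amn and 0.23 for Cubn, 3 of 4 past the limit, against 6.55% of 13946 genes. No member was higher by the limit at days 1, 5 and 9, against 4.18%, 4.67% and 6.09% of genes, and Amn was the 1 member lower at day 1, against 5.63%. None was lower at days 5, 9 and 11 (5.19%, 5.75% and 6.58%). At day 9 the difference of Lrp2 was 0.65, and 1.15 with a pseudocount of 0.1.

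Macrophage markers moved with the same comparison. The summed level of the 8 markers was 84.3, 33.1, 26.2 and 25.4 FPKM with WT and 166, 208, 199 and 397 FPKM with delN12 at days 1, 5, 9 and 11, and 4 of 7, 6 of 7, 7 of 8 and 7 of 7 tested markers were higher with delN12. C1qa, a complement gene of tissue macrophages named after its values were seen, was 116 FPKM with delN12 and 3.88 with WT at day 11. The part of such cells in the members' values was not tested. The endoderm markers moved too, with 5 of 8 higher with delN12 at day 11 (median 2.92, against 6.55% of all genes), as did 6 of 7 tested visceral endoderm markers (median 1.96).

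In the single-cell table the 4 genes were highest in 1 annotated population. The cells carry the authors' annotation as a column prefix, and that population is labelled ParE, a label that the sources do not spell out. There were 2372 ParE cells among 11335 BMP4+ cells and 142 among 8685 BMP4- cells, with a median of 23773 and 11562 UMIs. The other labels were Endothelial cells, Intermediate state and, in 1 sample each, Placenta-like and Pluripotent cells. The paper names clusters of these kinds and 1 of primitive endoderm cell-like cells, so by elimination ParE marks the latter. The annotation rests on clusters of all genes, so a contrast of ParE with other cells is a description. Of 8 general endoderm markers, 7 were higher by 1 on the log2(CPM + 1) scale in BMP4+ ParE cells than in the other cells. Col4a1 and Lama1, basement membrane chains, Sox17, an endoderm transcription factor, and Pth1r, the parathyroid hormone receptor of parietal endoderm, were the most abundant of them. Also higher were 8 of 9 tested visceral markers and 7 of 11 parietal ones, and 6 of 6 fibroblast markers were lower. The parietal list shares Lama1, Col4a1 and Pth1r with the general endoderm list. Of 3 tested pluripotency markers, 2 were higher, and that list summed to 188 CPM in ParE and 73.8 in the other cells. The label thus sits on cells with genes of both yolk-sac lineages. The paper reports its primitive endoderm cell-like cells as closer to embryonic primitive endoderm than to parietal or visceral endoderm. Kidney proximal tubule markers, the other tissue of this complex, summed to 1.03 CPM (UMIs scaled to a common library total) there, with 3 of the 6 in the table at 0. Macrophage markers summed to 5.65 CPM with C1qa and C1qc at 0. Both samples shared 2 cell barcodes.

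In BMP4+ ParE cells Dab2 reached 433 CPM (95% Poisson interval 428 to 438), Cubn 107 (104 to 109), Lrp2 156 (153 to 159) and Amn 208 (204 to 211). In the other BMP4+ cells the levels were 11.2, 2.21, 6.88 and 17.3 CPM. ParE cells were thus 38.7 times higher for Dab2, 48.1 for Cubn, 22.7 for Lrp2 and 12 for Amn, 4 of 4 members past the limit against 8.4% of 10320 genes. In BMP4- ParE cells the levels were 353 CPM (327 to 381), 69.8 (58.4 to 82.8), 55.0 (45.0 to 66.7) and 95.2 (81.8 to 110), which was 50.8, 160, 64.2 and 19.2 times those of the other BMP4- cells, again 4 of 4, against 8.96% of genes. All intervals here cover counting error in 1 sample and not the spread between cultures.

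ParE cells held 22.8% of all UMIs of the BMP4+ sample but 92.0% of its Dab2 UMIs, 93.4% of Cubn, 87.0% of Lrp2 and 78.0% of Amn. In the BMP4- sample they held 1.53% of all UMIs, 44.2% of Dab2, 71.4% of Cubn, 104 of the 208 UMIs of Lrp2 and 23.0% of Amn. Amn was the member with most of its RNA outside the endoderm cells in both samples.

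Outside ParE, the next highest level in the BMP4+ sample was in Placenta-like cells for both receptors, in Intermediate state for Dab2 and in Endothelial cells for Amn. Dab2 was 12.4 CPM (11.8 to 12.9) in Intermediate state, 9.85 (8.15 to 11.8) in Placenta-like and 6.24 (5.44 to 7.13) in Endothelial cells, and Cubn was 2.25 (2.03 to 2.50), 3.45 (2.48 to 4.68) and 1.60 (1.21 to 2.08) in the same order, with intervals of Placenta-like and Intermediate state that overlapped for Cubn. Lrp2 was 31.5 CPM (28.4 to 34.8) in Placenta-like cells, where 44.2% of 385 cells had an Lrp2 UMI, against 5.78 CPM in Intermediate state and 3.55 in Endothelial cells, and ParE cells were only 4.96 times higher (4.47 to 5.51). Amn was 33.3 CPM (31.4 to 35.3) in Endothelial cells of the BMP4+ sample against 13.9 in Intermediate state and 17.5 in Placenta-like cells, and 29.5% of 1453 Endothelial cells had an Amn UMI. In the BMP4- sample the Endothelial level of Amn was 6.06 CPM (4.51 to 7.96), near the 5.49 of Intermediate state. The ratios between members differed from type to type. The Dab2 to Cubn ratio of UMIs was 4.07 (3.96 to 4.18) in BMP4+ ParE cells, 3.89 (2.89 to 5.32) in Endothelial cells and 5.49 (4.90 to 6.15) in Intermediate state. The Dab2 to Amn ratio was 2.09 (2.04 to 2.13) in ParE and 0.187 (0.161 to 0.217) in Endothelial cells, and the Dab2 to Lrp2 ratio was 2.78 (2.71 to 2.84) in ParE and 0.313 (0.252 to 0.386) in Placenta-like cells. Free RNA in the droplets was not measured here, and its part in the low levels outside ParE was not tested.

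**Figure D3:**
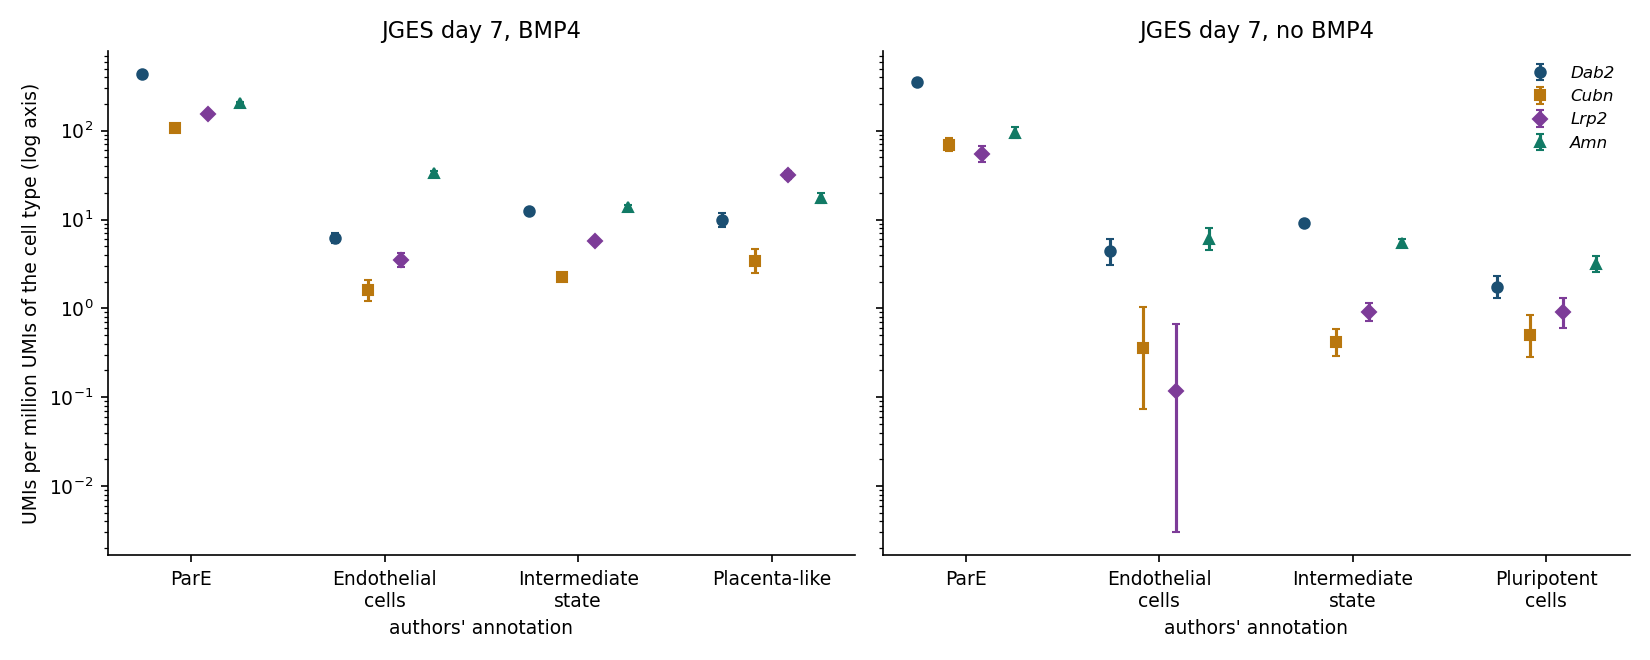
CPM on a log axis by annotated cell type, for the BMP4+ sample on the left and the BMP4- sample on the right, with 95% Poisson intervals that cover counting error. ParE cells are highest for all 4 genes in both samples, Amn is raised in BMP4+ Endothelial cells at 33.3 CPM, and Lrp2 in Placenta-like cells at 31.5 CPM.

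Within ParE cells all 4 members were higher in the BMP4+ sample, and Lrp2 and Amn by more than Dab2 and Cubn. The ratio of the BMP4+ to the BMP4- level was 1.23 (1.14 to 1.33) for Dab2, 1.53 (1.28 to 1.83) for Cubn, 2.84 (2.34 to 3.48) for Lrp2 and 2.18 (1.88 to 2.54) for Amn, so that the intervals of Lrp2 and Amn lay above those of Dab2 and Cubn, which overlapped each other. With 1 sample a condition, these intervals cover counting error only and do not show which members differ with BMP4. On the log2(CPM + 1) scale 2 of 4 members passed the limit, against 24.4% of 9638 genes, whose median was 0.52, so that Dab2 shifted less than the median gene. Other lists moved in the same contrast. Of 6 pluripotency markers, 5 were lower with BMP4 (median -2.86), and their summed level was 188 CPM with BMP4 and 898 without. Of 4 tested fibroblast markers, 3 were higher (median 2.15). The 2 samples also differed in depth, and the part of these differences in the members' values was not tested. Over all cells the ratios were 8.76 for Dab2, 17.3 for Cubn, 24.2 for Lrp2 and 9.57 for Amn.

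Those whole-sample ratios can be set beside the bulk libraries of the same condition, where the FPKM ratios were 7.39, 2.13, 3.74 and 3.43. Dab2 had similar ratios in both assays. The other 3 genes had larger ratios in single cells, and Cubn stood out, at 13.7 FPKM in the BMP4- bulk library but only 1.5 CPM over all BMP4- single cells, with 29.1 FPKM and 26 CPM in the BMP4+ pair. The 8 endoderm markers did likewise, with FPKM ratios of 0.579 to 4.06 (median 1.98) and single-cell ratios of 2.76 to 16.7 (median 6.30), the latter larger for 8 of 8. Gata4, the endoderm transcription factor, went from 2.02 in bulk to 16.7, and Gata6 from 0.579 to 4.57. These markers were set beside the members after their values were seen, and the cause was not tested. Gm13270, an annotated antisense transcript that overlaps the 3′ part of Cubn, was 0.915 FPKM without BMP4 and 1.05 with it at day 7, and the bulk kit is not stated to keep strand.

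Single ParE cells showed the 4 genes together. A UMI of Dab2 was found in 88.2% of BMP4+ ParE cells, of Lrp2 in 81.5%, of Amn in 74.6% and of Cubn in 59.7%. In the shallower BMP4- sample the shares were 83.8%, 43.0%, 38.7% and 31.0%. With every cell thinned at random to 4000 UMIs, at which no ParE cell was lost, the shares were 64.1%, 41.4%, 41.5% and 24.6% with BMP4 and 59.2%, 17.6%, 22.5% and 21.8% without. At equal depth the shares of Dab2 and Cubn in the 2 samples had overlapping intervals (62.2% to 66.1% and 50.6% to 67.3% for Dab2, 22.9% to 26.4% and 15.3% to 29.5% for Cubn), and those of Lrp2 and Amn did not.

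All 4 genes had a UMI in 1129 of 2372 BMP4+ ParE cells (47.6%), and none of them in 94 (3.96%). In other BMP4+ cells, with a median of 20411 UMIs, the share with all 4 was 0.346%. At 4000 UMIs all 4 were found in 199 ParE cells (8.39%, 95% Clopper-Pearson interval 7.30% to 9.58%), at least 3 in 660 (27.8%) and none in 440 (18.5%), and of the other 8963 cells 2 held all 4 (0.0223%). The mean over all possible thinnings, computed exactly and added after the data were seen, was 9.07% for all 4 and 27.7% for at least 3. Of 142 BMP4- ParE cells, 18 held all 4 at full depth (12.7%) and 3 at 4000 UMIs (2.11%, 0.438% to 6.05%), and of the other 8543 BMP4- cells 0 did, which allows a share of up to 0.0351% by the limit of 3 counts and up to 0.0432% by the Clopper-Pearson interval.

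The pairs differed in how often they were found together. At 4000 UMIs in BMP4+ ParE cells, Cubn was found in 37.2% of cells with Amn (34.2% to 40.3%) and in 15.6% of cells without (13.8% to 17.7%). Amn was found in 62.8% of cells with Cubn and in 34.5% without. Dab2 was found in 82.0% of cells with Cubn and in 58.3% without, and Lrp2 in 49.0% of cells with Dab2 and in 27.7% without. All 6 pairs were found together more often than apart in this sense, with intervals that did not overlap. In BMP4- ParE cells only the carrier and its receptor did so, with Cubn in 46.9% of cells with Amn (29.1% to 65.3%) and in 14.5% of cells without (8.55% to 22.5%). For the other 5 pairs the intervals overlapped at this number of cells.

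Levels were also correlated from cell to cell. Over the 2372 BMP4+ ParE cells, Pearson's r of log counts per 10000 was 0.61 for Cubn with Amn, 0.56 for Dab2 with Cubn, 0.53 for Dab2 with Lrp2, 0.50 for Dab2 with Amn, 0.49 for Cubn with Lrp2 and 0.47 for Lrp2 with Amn, and 0.11 to 0.16 for each gene with the cell's UMI total. Among 9372 genes found in at least 10% of these cells, Amn was the gene closest to Cubn and Cubn the gene closest to Amn, and Dab2 the gene closest to Lrp2. The cells share 1 library, and these values are a description. Over the 142 BMP4- cells r was 0.49 for Cubn with Amn and 0.07 to 0.19 for the other pairs. Beside the members themselves, the genes closest to Dab2 were Emb (0.59), Slc2a3 (0.53), a glucose transporter, and Slc16a1 (0.52), a lactate transporter. Closest to Cubn were Apom (0.55), an apolipoprotein, Slc9a3r1 (0.50), a scaffold of microvilli, and Ctsz (0.47), a lysosomal protease. Closest to Lrp2 were Slc2a3 (0.50), Gldc (0.46), of glycine cleavage, and Morf4l2 (0.45), and to Amn Ctsz (0.56), Apoe (0.55) and Slc2a3 (0.52). Over the 17 bulk libraries, which mix factors and days, the closest genes were others. They were Rbp4 (0.87), Flt1 (0.86) and Morf4l2 (0.79) for Dab2, Tie1 (0.93), Pfkfb3 (0.93) and Nek1 (0.92) for Cubn, and Dpp4 (0.93), Klb (0.92) and Spink1 (0.91) for Lrp2. For Amn they were Pacsin1, Asap2 and Tmem59l. Without the 2 libraries farthest from the member's median, among them the day 7 BMP4+ library in each case, r was 0.57 for Morf4l2 with Dab2 and 0.72 to 0.96 for the other 11 of these pairs. The members were less alike over the same 17 libraries, with r of 0.86 for Cubn with Lrp2, 0.67 for Dab2 with Lrp2, 0.54 for Cubn with Amn, 0.48 for Dab2 with Cubn, 0.35 for Lrp2 with Amn and -0.05 for Dab2 with Amn. Without the 2 day 7 libraries of the JGES course, which lie farthest from the median of Cubn, r of Cubn was 0.60 with Lrp2, 0.39 with Amn and -0.07 with Dab2. Those 2 also lie farthest from the median of Lrp2, and without them its r was 0.35 with Dab2 and -0.00088 with Amn. Without the 2 libraries farthest from the median of Dab2, r of Dab2 was -0.42 with Amn and 0.31 with Lrp2.

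Cells with more members detected also held more Apoe and Ttr, both ligands of the complex, and more of the lysosomal protease Ctsl, but less of the ligand Clu. The BMP4+ ParE cells were split by the number of members with a UMI at 4000 UMIs, giving 440, 654, 618, 461 and 199 cells with 0, 1, 2, 3 and 4. From 0 to 4, Apoe went from 898 to 3922 CPM, Ttr from 113 to 550 and Ctsl from 1807 to 3537. Apom went from 7.75 to 119, but it was chosen for its correlation with Cubn in these cells, so its rise follows from that choice. Apoe was also among the genes closest to Amn there. The visceral endoderm list, which holds Ttr, went from 275 to 885 CPM, and the endocytic machinery, which holds Ctsl, from 5093 to 7945. Ttr and Ctsl make up the larger part of these rises, so the sums are not separate results. The general endoderm list was 1792 and 2100 CPM in the first and last groups, with Sox17 at 234 and 246 and Pth1r at 156 and 318, and the parietal list was 4618 and 5030, with Sparc, a basement membrane glycoprotein, at 2147 and 2183. Clu went the other way, from 786 to 205 CPM, although it is a known ligand of megalin. Fibroblast markers went from 239 to 30.3 CPM and the pluripotency list from 66.3 to 309. Median depth was 21476 and 25988 UMIs in the first and last of these groups, and its part was not tested.

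**Figure D4:**
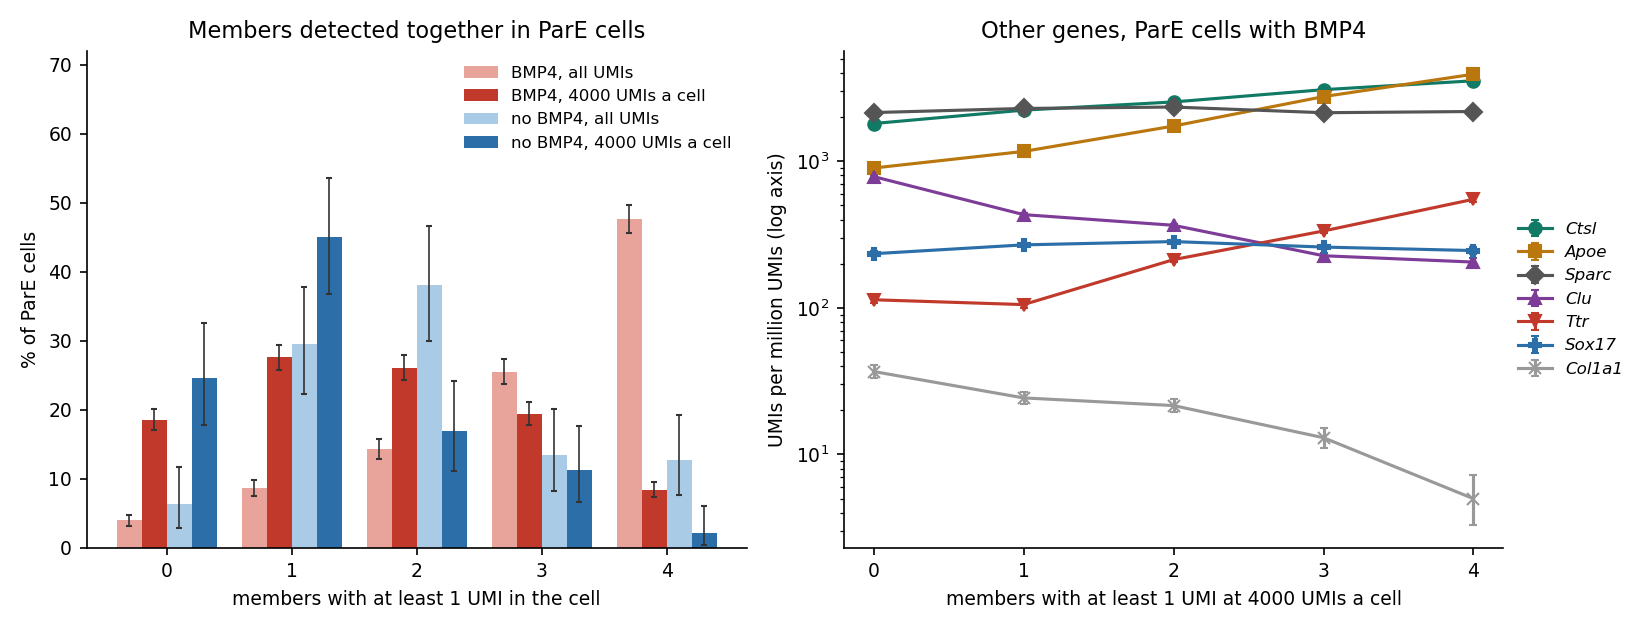
On the left, the percent of ParE cells with 0 to 4 of the genes detected, at full depth (pale) and at 4000 UMIs a cell (dark), with BMP4 in red and without in blue and 95% Clopper-Pearson intervals. On the right, CPM on a log axis for 7 other genes in BMP4+ ParE cells by number of members detected, with Poisson intervals, where Apoe, Ttr and Ctsl go up, Sox17 and Sparc stay level, and Clu and Col1a1 go down.

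Chromatin was profiled in the SALL4-alone cells and in MEFs, not in JGES cells. In the RNA libraries of the SALL4-alone cells, at days 1, 5, 9 and 11, Cubn was at most 0.443 FPKM. On GRCm38/mm10, Dab2 (ENSMUSG00000022150) lies at chr15:6299788-6440712 on the plus strand, Cubn (ENSMUSG00000026726) at chr2:13276338-13491813 on the minus strand, Lrp2 (ENSMUSG00000027070) at chr2:69424340-69586065 on the minus strand and Amn (ENSMUSG00000021278) at chr12:111271095-111276426 on the plus strand. Peaks of all 13 lists that overlapped were merged into sites, and 23, 30, 18 and 3 sites lay within 10 kb of Dab2, Cubn, Lrp2 and Amn. A peak score is the value the peak caller gave, and it depends on the depth of its library.

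The promoters differed widely within 2 kb of a start, while within 5 kb Cubn had a peak in all 13 lists. With a score of at least 100, fewer lists held a peak for Lrp2 and for Amn. Dab2 has 13 annotated start sites and Cubn, Lrp2 and Amn have 3 each, so the genes had unequal numbers of windows. A peak lay within 2 kb of an annotated start of Dab2 in 13 of 13 lists, of Lrp2 in 9, of Amn in 6 and of Cubn in 1, where the share of 21755 protein-coding genes with one was 70.9% in MEFs, 65%, 69%, 68.5% and 68.7% over the WT days, 63%, 64.8%, 66.1% and 66.6% over the delN12 days, 51.3% and 61.1% for H3K27ac and 57.8% and 44.6% for SALL4 with WT and delN12. The Dab2 peak covered an internal start at chr15:6385735-6388596, centred 87377 bases after the upstream start, with scores of 1831 in MEFs, 613 to 1126 over the WT days and 588 to 1018 over the delN12 days. None lay at its upstream start. The sequences of these starts are shown to compare the occupied with the unoccupied one, with Cubn and Lrp2 as the receptor promoters without and with a peak. They are 250 bases before to 50 after the start, from RefSeq on GRCm38, and capitals mark motif matches on either strand.
Dab2 internal promoter, chr15:6386498-6386797, plus strand: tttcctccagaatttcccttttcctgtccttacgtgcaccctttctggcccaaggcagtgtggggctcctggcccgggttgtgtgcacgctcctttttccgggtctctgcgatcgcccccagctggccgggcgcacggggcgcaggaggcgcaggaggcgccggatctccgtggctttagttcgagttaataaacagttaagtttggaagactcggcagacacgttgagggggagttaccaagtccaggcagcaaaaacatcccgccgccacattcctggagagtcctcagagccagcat
Dab2 upstream promoter, chr15:6299539-6299838, plus strand: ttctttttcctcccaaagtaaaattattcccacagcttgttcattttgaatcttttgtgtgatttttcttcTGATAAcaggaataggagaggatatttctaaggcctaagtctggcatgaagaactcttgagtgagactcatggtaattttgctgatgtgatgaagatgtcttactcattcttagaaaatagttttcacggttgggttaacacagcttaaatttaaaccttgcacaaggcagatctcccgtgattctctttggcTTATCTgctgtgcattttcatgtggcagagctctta
Cubn promoter, chr2:13491827-13492126, minus strand: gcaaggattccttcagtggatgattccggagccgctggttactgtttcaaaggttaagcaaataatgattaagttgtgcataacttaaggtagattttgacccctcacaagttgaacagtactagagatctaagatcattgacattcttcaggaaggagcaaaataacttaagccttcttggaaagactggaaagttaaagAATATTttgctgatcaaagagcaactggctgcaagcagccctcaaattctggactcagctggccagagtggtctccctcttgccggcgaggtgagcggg
Lrp2 promoter, chr2:69585980-69586279, minus strand: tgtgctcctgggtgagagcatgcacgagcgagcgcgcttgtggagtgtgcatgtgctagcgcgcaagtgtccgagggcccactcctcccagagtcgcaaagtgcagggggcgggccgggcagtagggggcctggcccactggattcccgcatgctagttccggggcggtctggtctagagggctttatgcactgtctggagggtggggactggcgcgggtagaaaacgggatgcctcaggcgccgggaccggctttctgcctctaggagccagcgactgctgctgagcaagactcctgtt

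The motifs searched on both strands were AGATAA and TGATAA for GATA factors, TGTTTAC for FOX factors, AACAAT for SOX factors, TGANTCA for AP-1, CAAAGTCCA for HNF4, and the palindrome AATATT, none of which can start at the same base of the same strand as another. The upstream Dab2 start held both GATA motifs at 1 place each, which 11.2% and 9.05% of 32851 promoters of this length hold, and the Cubn promoter held 1 AATATT (6.81%). The internal Dab2 start and the promoters of Lrp2 and Amn held none of the 7. The 2 Dab2 starts shown also differed in base composition, with a GC content of 59.3% and 19 CpG pairs at the internal one against 37.7% and 2 at the upstream one, where the median promoter has 52.7%. Lrp2 had 65%, Amn 62.3% and Cubn 44.3%. At Lrp2 the site over the start, chr2:69585753-69586472, held an H3K27ac peak with delN12 (score 125) and none with WT.

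Sites with a peak for only 1 form of SALL4, and none in MEFs, were about as frequent near the 4 genes with delN12 as with WT. Of the sites near each gene, 4, 4, 2 and 0 were present in a delN12 list and in no WT or MEF list for Dab2, Cubn, Lrp2 and Amn, and 6, 1, 2 and 1 in a WT list alone. Of all 188165 merged sites in the genome, 16.3% met the former rule and 15.9% the latter. Those with delN12 are shown here because the delN12 library of day 11 held the highest SALL4-alone levels of Dab2 and Lrp2. The strongest at Dab2 and at Cubn by SALL4 score were chosen after their values were seen. At Dab2 it lay in an intron 14106 bases into the gene, chr15:6313235-6314553, with a SALL4 delN12 score of 268 and ATAC scores of 57.5, 128 and 84.5 at delN12 days 5, 9 and 11. At Cubn it lay 4419 bases upstream, chr2:13495525-13496940, with a SALL4 delN12 score of 277, an H3K27ac delN12 score of 99.2 and ATAC scores of 102, 156 and 204 at delN12 days 1, 5 and 11. The 300 bases at the centre of each SALL4 peak, read from GRCm38, are given on the strand of the gene with motif matches in capitals.
Dab2 delN12 site, chr15:6313745-6314044, plus strand: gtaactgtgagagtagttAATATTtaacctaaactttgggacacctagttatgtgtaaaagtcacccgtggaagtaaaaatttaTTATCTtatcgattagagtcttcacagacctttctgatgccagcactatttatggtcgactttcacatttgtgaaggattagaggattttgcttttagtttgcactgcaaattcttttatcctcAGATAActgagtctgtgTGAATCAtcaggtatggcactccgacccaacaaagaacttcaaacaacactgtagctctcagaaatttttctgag
Cubn delN12 site, chr2:13496083-13496382, minus strand: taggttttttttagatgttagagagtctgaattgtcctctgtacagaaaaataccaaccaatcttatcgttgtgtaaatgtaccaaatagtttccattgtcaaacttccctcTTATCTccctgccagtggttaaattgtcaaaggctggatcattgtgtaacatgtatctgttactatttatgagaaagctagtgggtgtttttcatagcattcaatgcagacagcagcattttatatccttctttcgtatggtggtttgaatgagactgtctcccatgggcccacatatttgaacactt

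The Dab2 site held AGATAA at 2 places, TGANTCA at 1 and AATATT at 1, and the Cubn site AGATAA at 1. Of the centres of 67282 SALL4 delN12 peaks, 17.5% held AGATAA, 35.5% TGANTCA and 10.6% AATATT. A match is a description of the letters and not of binding.

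Within Dab2 and Cubn, H3K27ac scores were higher with delN12 at sites present in at least 12 lists, while no site of Lrp2 was present in more than 10. At 26258 bases into Dab2, chr15:6324897-6327196, SALL4 scored 322 with delN12 and 219 with WT, and H3K27ac had a peak with delN12 (214) and none with WT. At 119805 bases into Cubn, chr2:13370279-13373738, H3K27ac scored 765 with delN12 and 261 with WT, and at 105519 bases, chr2:13384490-13388098, 636 and 129. Over all sites near Dab2, 6 had an H3K27ac peak with delN12 and 1 with WT, and near Cubn 11 and 6 had one. At 1 Cubn site, chr2:13412375-13414566, the peak was in the WT list (66.6) and not in that of delN12. The H3K27ac lists hold 45599 peaks with delN12 and 19841 with WT, with median scores of 138 and 111. Of the former 61.5% had no overlap in the latter and of the latter 11.2% had none in the former, so that added peaks with delN12 hold for the lists as a whole. Scores at shared sites were not compared over the lists. Amn had no SALL4 or H3K27ac peak, and its 3 sites were ATAC peaks with scores of at most 101.3.

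**Figure D5:**
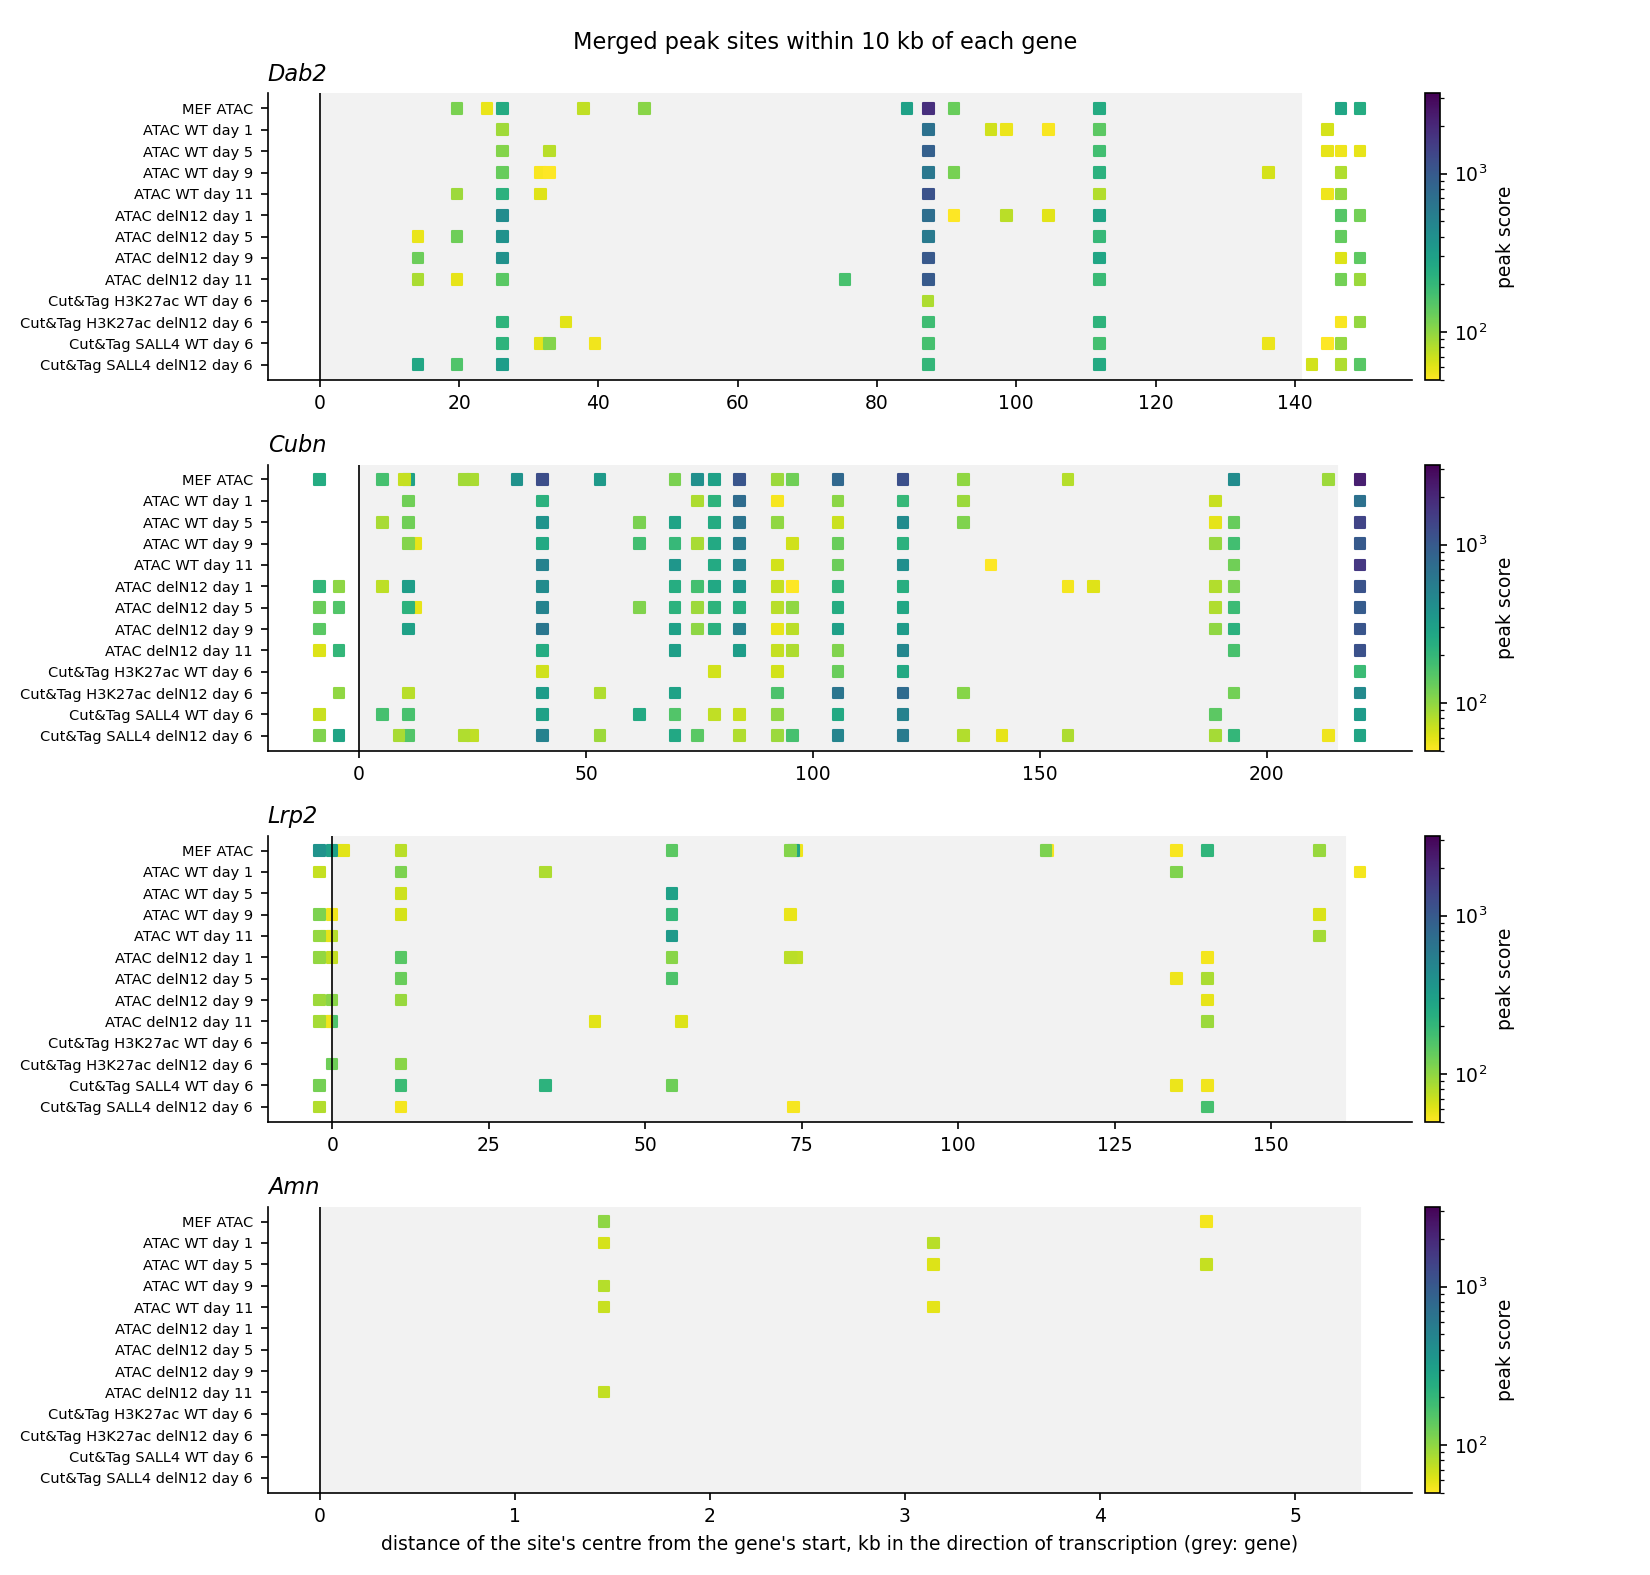
Merged peak sites at each gene by distance from its start in kb along transcription, with 1 row for each of the 13 lists, squares coloured by peak score (log scale) and the gene in grey. Dab2 has a peak in every list at its internal start, Cubn has 4 sites present in all lists, and Amn has 3 weak ATAC sites.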

How the data were processed

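The series holds 38 samples: 23 of bulk RNA, 2 of single cells, 9 of open chromatin and 4 of Cut&Tag, each condition once. The authors made the deposited FPKM values with Trim Galore 0.6.4, HISAT2 2.2.1 and StringTie 2.2.1 on mm10, as 1 table of 17 libraries and 1 of 8, which were used separately. The deposited single-cell table holds raw UMI counts that the authors made with STAR and Scanpy, with their cell annotation in the column names. Of its 30769 columns, 20020 were used and 10749 belong to no sample here and were not. The peak score is the value in the deposited MACS 1.4.2 lists, which the authors called after Trim Galore 0.6.4, Bowtie2 2.4.5 and SAMtools 1.16.1, with Cut&Tag replicates merged before calling. Whether the counting used strand is not given in the sources used here.

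Members were matched by symbol. A bulk gene was tested where either library of a comparison reached 1 FPKM, its difference was taken between values of log2(FPKM + 1), and a difference of at least 1 was called. With 1 library a group no difference was tested on its own. Libraries paired by day or by factor set were compared with an exact two-sided sign-flip permutation test, added after the data were seen. Single-cell UMIs were summed by annotated type into CPM with exact Poisson intervals, genes with at least 5 CPM in either group entered the backgrounds, and shares of cells have exact Clopper-Pearson intervals at 95%, also after each cell was thinned to 4000 UMIs. Doublets were not called, and whether they were removed before deposit is not given in the sources used here. UMI totals ranged from 6990 to 100374 per BMP4+ cell and from 4163 to 57071 per BMP4- cell. Peaks were tied to GENCODE start sites within 2 kb on GRCm38, and peaks that shared a base were counted as overlapping. The genes named are the 4 members, at most 4 genes per list (those highest in BMP4+ ParE cells), and the 3 genes with the highest correlation with each member, and any other is said to be chosen after its values were seen. The members and lists were chosen with earlier results of these data known. Python 3.11.15, pandas 2.3.3, numpy 2.4.6 and scipy 1.17.1 were used, and the calculations were tested on simulated data. Alternatives changed the pseudocount, the FPKM minimum, the scaling of libraries, the choice of cells, the thinning, and the promoter window. Counts over the list of relatives of Lrp2 are not reported here.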

Additional observations from a re-analysis of the deposited data

Results flagged for a closer look

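Cubn changed direction with BMP4 between factor sets, and Amn changed direction between days. With BMP4, Cubn differed by 1.04 on the log2 scale in JGES cells at day 7 and by -1.05 in JGESO cells. With BMP4 in JGES cells, Amn differed by 1.70 at day 7 and by -1.15 at day 3. With delN12 against WT SALL4, Amn differed by 1.22 at day 11 and by -1.02 at day 1, at levels of at most 1.72 FPKM. Each side of these contrasts is 1 library against 1, and the difference between the contrasts was not tested. No group held enough samples to look for a sample that stands apart.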

How the results depend on the processing

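No paired analysis was possible by replicate number because the groups share only 1. Paired by day or by factor set, with 4 pairs each, the exact two-sided sign-flip permutation test cannot go below p = 0.125. It gave 0.125 for Dab2 with BMP4 in JGES (mean difference 0.90 ± 1.24 SD, higher in 4 of 4 days) and for Lrp2 with delN12 (0.48 ± 0.48, 4 of 4), and 0.25 to 1 for the other 10 combinations of member and pairing. Of 166 alternative values of bulk differences of tested members, JGES steps between neighbouring sampled days included, under another pseudocount, table or scaling, 159 stayed on the same side of the limit, 7 crossed it and 0 reversed. The SALL4-alone time steps and the longer steps from day 0 were not among the 166. Some of those crossed the limit with a pseudocount of 0.1, such as Lrp2 from day 1 to day 11 with WT SALL4 (0.96 and 2.25). Of 48 shares of all genes past the limit under another filter, 22 were within 1.5 times and 26 were not, such as the 10.3% at day 7 of JGES, which was 9.3% with at least 5 FPKM and 4.38% with no filter, where more genes near 0 are counted. With a pseudocount of 0.1, which weighs genes near 0 more, 1 member was higher with BMP4 in JGES at day 3 (also 1 with libraries scaled to a common median ratio), 1 in JGE, 2 were lower in JGESO, 1 was higher with delN12 at day 9, and 1 was higher in JGEO than in JGE with BMP4. Members below 1 FPKM in both libraries were not counted. With at least 4 of 8 endoderm markers in place of the ParE label, CPM of Dab2, Cubn, Lrp2 and Amn was 339, 83.4, 124 and 168 with BMP4 and 238, 46.0, 34.5 and 67.04 without. Without the ParE cells that lay among the 6% of all BMP4+ cells with the most UMIs, 2224 were left. In these Dab2 was 452, Lrp2 160.2 and Amn 215. As a mean over all BMP4+ ParE cells Cubn was 102 and Amn 203. All 4 members were found in 47.6% of BMP4+ ParE cells unthinned and 9.65% in another random thinning. At least 3 were found in 73.1% unthinned and 27.8% at 4000 UMIs. In the BMP4+ cells of middle depth that share was 78.5% unthinned and 32.3% at 4000 UMIs. Without BMP4, all 4 were found in 12.7% unthinned and 2.11% at 4000 UMIs. In the BMP4- cells of middle depth they were found in 14.3% unthinned and in 0 of 70 cells at 4000 UMIs (upper limit 5.13%). At least 3 were found in 26.1% of BMP4- ParE cells unthinned, 13.4% at 4000 UMIs and 6.34% in another thinning. The mean of that share over all possible thinnings was 9.92%. Lists with a peak near any annotated Cubn start, internal ones included, were 0 within 1 kb and 13 within 5 kb. With a score of at least 100 they were 5 for Lrp2 and 1 for Amn. The cause of these shifts was not tested. FPKM tables without read totals, 142 BMP4- ParE cells and the absence of replicates limit every value here.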
